A study of Mus musculus with 8 samples.

Results

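Acetylation of histone H3 at lysine 27 (H3K27ac) was mapped in whole mouse adrenal glands, and 504 genomic regions carried a called peak in the fetus and the newborn of both sexes but in no list from 2 weeks of age onward. These regions were chosen by the peak calls themselves. The peaks of 7 deposited lists were merged into 147792 union regions on chromosomes 1 to 19, and a region was taken when it overlapped a peak at E18.5, in P1 females and in P1 males, and no peak in the 2-week and 12-week lists. The members made up 0.341% of all autosomal union regions and 2.26% of the 22283 regions called in all 3 younger lists. Because the calls selected them, the presence and absence of their peaks is a description and was not tested.

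Each list came from 1 chromatin immunoprecipitation of 1 pool of glands from C57BL/6J mice, an inbred laboratory strain, with no genetic or drug treatment in the labels. The E18.5 pool held 30 glands of embryos of undetermined sex, the P1 (postnatal day 1) pools 22 glands each, the 2-week pools 12 each and the 12-week pools 6 each, with 1 pool per sex after birth. No group therefore had a replicate, and no value below has an error between animals. A whole gland mixes cortex, medulla, capsule, vessels and blood, so that fewer cells of a type and less acetylation per cell cannot be told apart. Of 22 promoters of steroidogenic genes, the markers of the cortex, between 20 and 22 were called in each list, and of 21 promoters of chromaffin cell genes, the markers of the medulla, between 9 (12-week male) and 21 (E18.5) were.

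H3K27ac marks active promoters and enhancers, and distal regions that carry it are commonly read as enhancers in use. Around birth the rodent adrenal cortex grows and is remodelled, and in many organs a group of growth-promoting genes that are active in the fetus, several of them imprinted (expressed from only the maternal or only the paternal copy), is switched off in the first weeks of life. The best known are Igf2, a fetal growth factor, H19, the long non-coding RNA beside it that is expressed from the other parental copy, and Igf2bp1 and Igf2bp3, RNA-binding proteins of fetal tissue.

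The sequences below come from the members at Igf2bp3, H19 and Igf2, which rank among the 20 highest by the measure given further on, and from 2 members at erythroid genes, at Nprl3 and Slc4a1, which were picked after their values were seen because the erythroid genes recur below. Each is 200 bases of the plus strand of GRCm38, written 5′ to 3′. Capitals mark matches, on either strand, to the short motif words searched, namely GGGCGGG (SP/KLF), GGGTGTGG (KLF), the E-box words with a GC core (CAGCTG), with a GA core (CAGATG) or with a GG core (CAGGTG), the word of GATA factors (AGATAA), that of TEAD factors (GGAATG), that of AP-1 (TGANTCA), that of SOX factors (ACAATGG) and TGATTGAT (PBX-HOX). A match is a run of letters and not a shown binding site.
Igf2bp3, upstream member (chr6:49217602-49217801, intergenic): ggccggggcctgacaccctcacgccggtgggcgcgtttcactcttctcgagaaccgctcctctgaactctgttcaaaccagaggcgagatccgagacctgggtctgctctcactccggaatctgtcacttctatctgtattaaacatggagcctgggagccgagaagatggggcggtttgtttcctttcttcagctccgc
Igf2bp3, start member (chr6:49214224-49214423, within the gene): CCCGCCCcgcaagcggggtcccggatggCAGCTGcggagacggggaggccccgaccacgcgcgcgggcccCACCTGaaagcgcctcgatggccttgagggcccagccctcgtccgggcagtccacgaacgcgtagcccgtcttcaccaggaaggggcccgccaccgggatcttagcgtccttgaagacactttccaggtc
H19 member (chr7:142571649-142571848, downstream of H19): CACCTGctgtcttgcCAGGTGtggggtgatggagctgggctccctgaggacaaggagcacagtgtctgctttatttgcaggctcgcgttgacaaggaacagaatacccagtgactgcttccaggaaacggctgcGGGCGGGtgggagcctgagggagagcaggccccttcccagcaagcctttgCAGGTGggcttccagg
Igf2 member (chr7:142660469-142660668, within Igf2): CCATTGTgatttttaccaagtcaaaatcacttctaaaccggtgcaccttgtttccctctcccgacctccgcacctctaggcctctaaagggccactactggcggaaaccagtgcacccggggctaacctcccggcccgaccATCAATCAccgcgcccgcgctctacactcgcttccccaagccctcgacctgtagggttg
Nprl3 member (chr11:32256133-32256332, within Nprl3, next to the alpha-globin genes): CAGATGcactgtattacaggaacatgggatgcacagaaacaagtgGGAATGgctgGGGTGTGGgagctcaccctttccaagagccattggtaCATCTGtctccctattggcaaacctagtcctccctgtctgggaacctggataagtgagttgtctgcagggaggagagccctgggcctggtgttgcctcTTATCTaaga
Slc4a1 member (chr11:102364567-102364766, within Slc4a1): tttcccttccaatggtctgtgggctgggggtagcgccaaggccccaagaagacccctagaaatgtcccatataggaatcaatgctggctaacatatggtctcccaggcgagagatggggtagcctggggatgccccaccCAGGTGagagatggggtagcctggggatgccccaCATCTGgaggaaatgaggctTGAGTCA

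The upstream Igf2bp3 window held none of the motif words, whereas the window at its start held an SP/KLF word and the E-boxes with the GC core or the GG core. The Nprl3 window held 5 matches, among them GATA and KLF words. No such match says that a factor was bound.

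Most members were weak in the lists that called them. The authors' caller gave each peak a fold enrichment over background and a −log10 q, and these values belong to the peak in its own library. The −log10 q of the members ranged from 1.10 to 12.6 at E18.5 (median 1.62), from 1.10 to 6.97 in P1 females (median 1.65) and from 1.04 to 13.4 in P1 males (median 1.47). Their median fold enrichments were 2.89, 2.84 and 2.89. Set against all peaks of the same list, the median member lay at the 54.7th percentile of −log10 q at E18.5, the 38.6th in P1 females and the 28.1th in P1 males. Regions called in all 7 lists lay at medians of 90.4, 78.6 and 76.7. The lowest of the 3 values of a member had a median −log10 q of 1.27, and 486 of the 504 members had at least 1 of their 3 values under 2. The number of reads behind the lists is unknown, and a region that no later list calls may still carry acetylation below the calling threshold.

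Regions just outside the rule were also weakly called in the later lists. Of the regions called in all 3 younger lists, 457 (2.05%) were called in 1 later list alone, 665 (2.98%) in 2, 1136 (5.10%) in 3 and 19521 (87.6%) in all 4. The single later call was made in 12-week females for 228 regions, in 2-week females for 136, in 2-week males for 47 and in 12-week males for 46. Those later calls had median −log10 q values of 1.93, 1.69, 1.35 and 1.40, with a highest value of 12.4 in 12-week females.

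The 3 younger peaks of a member need not lie on the same bases. In 413 members at least 1 stretch was called in all 3 lists, with a median of 202 bp or 15.6% of the region. In the remaining members no base was called in all 3, though peaks of different lists could still overlap. With at least 50% of the region required to be covered in each younger list, 226 regions met the rule. Members were 1435.5 bp wide in the median (245 to 15639), against 771 bp for all union regions, 3160 bp for regions called in all 7 lists and 1881 bp for the 2057 regions called in all 4 later lists and no younger one, the mirror image of the members.

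To rank members without comparing levels between lists, the lowest of the 3 within-list percentiles of −log10 q was used. It ranged from 0.0298 to 86.8 with a median of 18.1, was at least 50 in 27 members and at least 80 in 2. Both of those lay at Igf2bp3, on chromosome 6. The member 2322 bp upstream of its start (chr6:49217279-49218466) had a −log10 q of 8.59 at E18.5, 6.97 in P1 females and 13.4 in P1 males, at fold enrichments of 5.47, 4.78 and 6.75. The member over the start (chr6:49213100-49216323) had values of 12.6, 5.95 and 7.41. No later peak lay within 41264 bp of the first or 43407 bp of the second. These were also the only members that kept the pattern when peaks under a −log10 q of 5 were dropped from every list. Under that setting 5 regions had the pattern, and the other 3 lay at the starts of Igf2bp1, Nusap1 and Rcn3, whose union regions also overlapped later peaks.

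**Figure D1:**
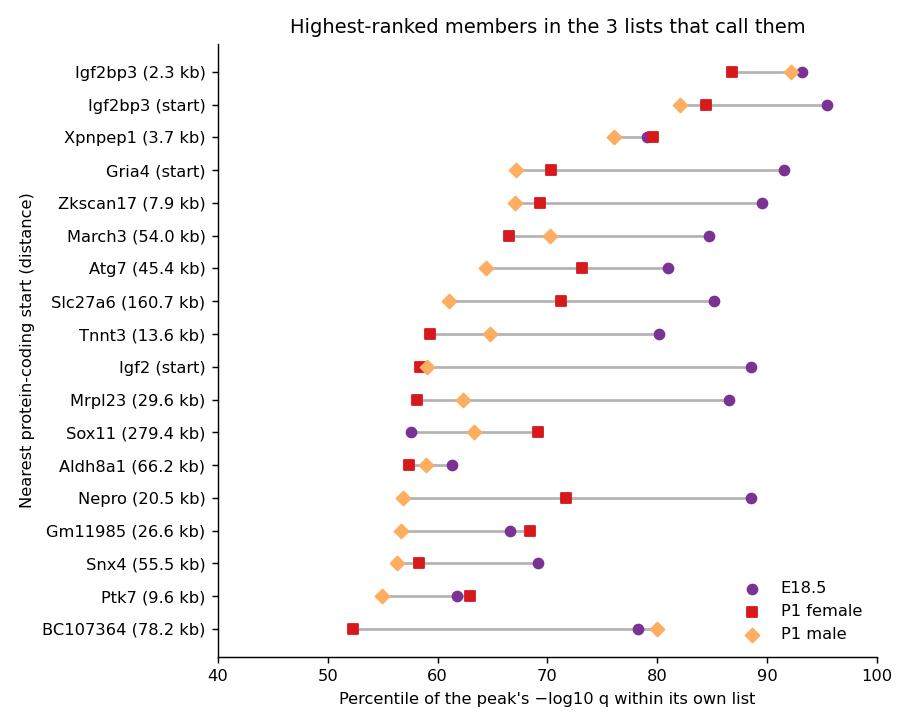
Each row is 1 of 18 of the 20 members ranked highest by their lowest within-list percentile, named by the nearest protein-coding start and its distance, and each point is the percentile of its peak's −log10 q in the E18.5, P1 female or P1 male list (x axis, 40 to 100). The Igf2bp3 members lie above 80 in all 3 lists, and from the fourth row down the lowest point of every row lies under 70.

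Below Igf2bp3 the ranking mixed promoters, regions inside genes and intergenic regions, and 3 of the 20 lay in the Igf2 and H19 locus described further on. The third member lay 3727 bp from the start of Xpnpep1, an aminopeptidase gene, with fold enrichments of 3.25 at E18.5, 3.92 in P1 females and 4.24 in P1 males. The fourth covered the start of Gria4, an AMPA glutamate receptor subunit, with −log10 q values of 6.09, 2.85 and 3.15, and stood 411915 bp from the nearest later peak, the longest such distance among the members. This subunit is best known from neurons. A member 279434 bp from Sox11, a transcription factor of neural and mesenchymal progenitors, had 1.67, 2.77 and 2.80, and a separate member covered the Sox11 start at 7.11, 1.72 and 2.74. Within its own lists the Gria4 member ranked at percentiles of 91.5, 70.3 and 67.1 and the distal Sox11 member at 57.6, 69.1 and 63.3, so the former ranked highest at E18.5 and the latter lowest there. Others of the 20 lay nearest to Zkscan17, March3, Atg7, Slc27a6, Tnnt3, Igf2, Mrpl23, Aldh8a1, Nepro, Gm11985, Snx4, Ptk7 and BC107364.

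Over all members the within-list percentile was higher at E18.5 than the mean of the 2 P1 lists in 370 and lower in 134 (median difference 18.7 points). It was higher in P1 females than in P1 males in 323 and lower in 181 (median difference 6.97 points). Percentiles depend on the length of each list, and the E18.5 list had 106203 autosomal peaks against 47968 and 43638 at P1.

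The members were mostly distal. Of the 504, 59 (11.7%, 95% Wilson interval 9.18% to 14.8%) lay within 1 kb of a protein-coding start, 67 (13.3%) over an exon, 176 (34.9%) in introns and 202 (40.1%) between genes. Only protein-coding genes were counted here, so a region over a non-coding gene can stand as between genes. All union regions had a promoter share of 10.9%, regions called in all 7 lists 55.6% and later-only regions 2.24%. The members' share was 6.44% without the E18.5 list in the rule, 19.6% with the same number of peaks kept per list and 23.9% with 50% of the region covered, so it depends on the setting. That of all regions was computed under the main setting alone. A member is a merged region, and the peak of a single list need not lie within 1 kb of the start. These intervals cover counting error over regions only, and neighbouring regions are not independent. The 10 highest-ranked promoter members included those of Igf2bp3, Gria4, Igf2, Evi5, Cpa1, C1qtnf3, Tfr2, Lmod1 and Sox11. Evi5, a cell cycle regulator, had −log10 q values of 3.12, 2.07 and 1.97 at E18.5, in P1 females and in P1 males. Tfr2, a transferrin receptor of liver and red cell precursors, had 1.48, 2.15 and 1.90, and its region ended 766 bp from a later peak. Lmod1, an actin nucleator of smooth muscle, had 1.53, 1.75 and 2.52.

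Members lay at widely differing distances from later peaks. The nearest peak of a later list lay within 1 kb of 58 members (11.5%), within 5 kb of 226 (44.8%) and farther than 20 kb from 108 (21.4%), with a median of 6232.5 bp. Counting only the 2-week lists, 26 members (5.16%) had a peak within 1 kb and 153 (30.4%) had none within 20 kb. The later-only regions lay closer to the younger peaks, at a median of 3758 bp, with 11.4% within 1 kb, 59.7% within 5 kb and 9.87% beyond 20 kb. The younger lists include the long E18.5 list, and to the P1 peaks alone the median was 7505 bp. Whether the nearest later peak was also called in the younger lists was not tested.

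Genes beside distal members mostly kept a called promoter. The 445 distal members had 404 different nearest protein-coding genes. The promoters of 278 of these (68.8%, 64.1% to 73.1%) were called in all 7 lists, against 55.8% of all protein-coding genes, and 29 (7.18%) in none, against 25%. The promoter was called in the 3 younger lists alone for 6 of the 404 (1.49%, 0.682% to 3.20%), against 0.255% of 20807 protein-coding genes. This is the pattern that chose the members, and the starts of Igf2bp3 and Sox11 are themselves covered by members. The share is therefore not independent of the rule. By list, between 72.8% (12-week male) and 90.1% (E18.5) of the 404 promoters were called.

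Members fell near 533 protein-coding genes, taken as a member in the gene body or within 20 kb of it, which is 2.56% of the 20807. The later-only regions fell near 1706 (8.20%). Genes with a member had a median length of 39153 bp, against 17629 bp for all protein-coding genes. Counts for each of 19 gene lists are read against the 2.56%, which covers protein-coding genes alone. Because the same data had shaped the choice of members and lists, the counts are descriptions and carry no test.

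**Figure D2:**
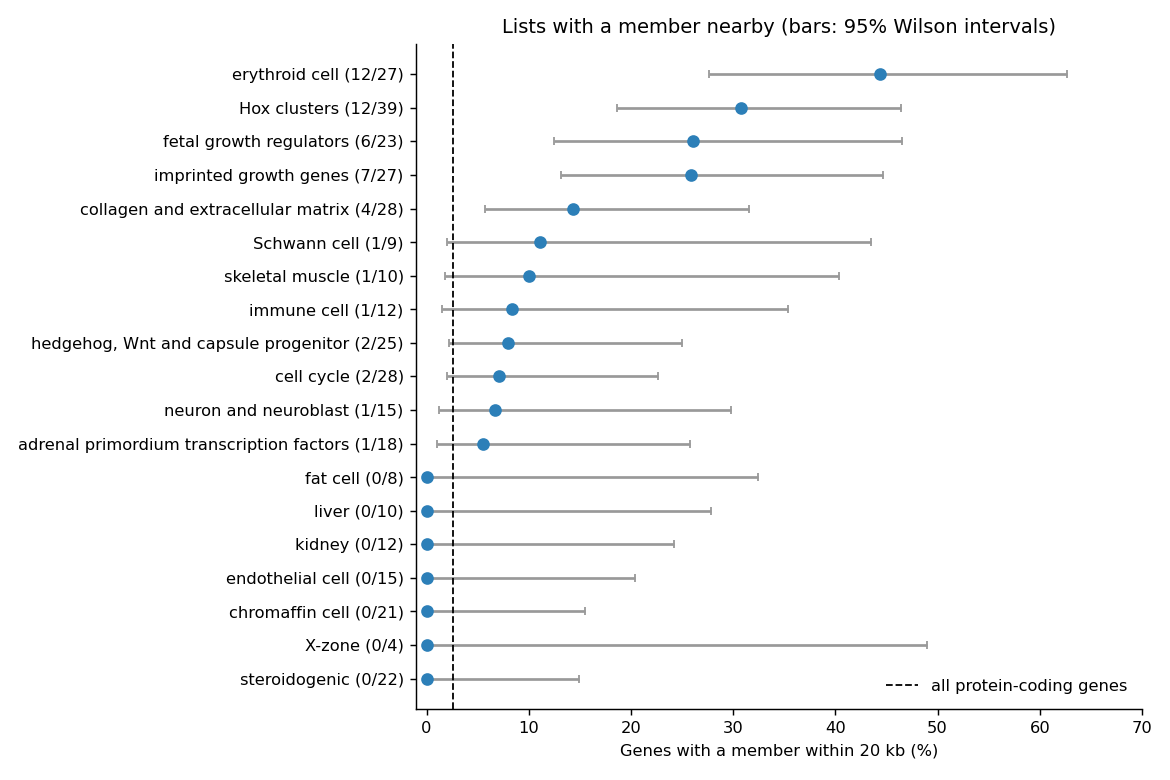
Percent of the genes of each list with a member in the gene body or within 20 kb (x axis; counts in brackets), with 95% Wilson intervals; the dashed line is the 2.56% of all protein-coding genes. The erythroid list stands at 12 of 27 genes, the Hox count of 12 of 39 comes from 2 members, and 7 lists have no gene with a member.

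Among fetal growth regulators, 6 of 23 genes (26.1%, 12.5% to 46.5%) had a member, with 7 members in all. The count was 10 without the P1 male list in the rule, where 6.84% of all protein-coding genes had a member. With 50% of the region covered it was 3, and the share of all genes was 1.32%. Igf2bp3 had the pair described above. Igf2bp1 had a member in an intron, 12993 bp from its start (chr11:95990683-95992947), with −log10 q values of 6.47 at E18.5, 1.25 in P1 females and 2.82 in P1 males. The promoter of Igf2bp1 was called in the 3 younger lists and in 2-week females, and that of Igf2bp2, the paralogue that remains expressed in many adult tissues, in all 7 lists with no member. The Sox11 promoter was called in the younger lists alone. The other genes were Arid3b, Fgfr2 and Dlk1, a growth-related transmembrane protein that is imprinted. The Fgfr2 member lay inside a gene model so long that it also spans Tacc2. Near the genes of this list lay 1.39% of the members, 0.407% of all union regions and 14 (0.681%) of the later-only regions, 9 of these at Fgfr2. Lin28a and Lin28b, classical fetal RNA-binding proteins, had no called promoter in any list.

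Among imprinted growth genes, 7 of 27 (25.9%, 13.2% to 44.7%) had a member, namely Igf2, H19, Mest, Slc38a4, Snrpn, Kcnq1ot1 and Dlk1. The list includes non-coding genes, and of its 21 protein-coding genes 5 had a member. They accounted for 11 members, 2.18% of the members against 0.156% of all union regions, and none of the later-only regions lay near an imprinted gene of the list. Several of these genes are neighbours and share regions, so that genes and members are not independent counts. Promoters of the list were called for 24, 21 and 22 genes at E18.5, in P1 females and in P1 males, and for between 16 and 19 genes in the later lists. Only Igf2 and H19 had a promoter called in all 3 younger lists and in no later one. Of all protein-coding genes 0.255% had this pattern, and H19 is non-coding.

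The Igf2 and H19 locus held the largest cluster, 9 members over 159 kb (chr7:142505568-142664790) when members less than 100 kb apart were chained. It started inside Tnnt3, a troponin of fast skeletal muscle, passed Mrpl23, a mitochondrial ribosomal protein, and H19, and ended in Igf2. The H19 member (chr7:142563415-142579053) was the widest of all at 15639 bp and spanned the gene with its flanks, with −log10 q values of 3.07 at E18.5, 2.19 in P1 females and 2.73 in P1 males. The Igf2 member (chr7:142655798-142661408) was 5611 bp wide and covered 1 of the starts of Igf2, with 3.65, 2.20 and 2.51. A further Igf2 member had 2.60, 1.93 and 1.94, and the member inside Tnnt3 with the highest rank had 2.37, 2.24 and 2.93. The other members of the cluster stayed at or below 3.03 in every list. The highest −log10 q of any of the 9 in any list was 3.65.

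Later peaks in the same interval lay at Tnnt3, at Mrpl23, between them and just past the end of Mrpl23. All 4 later lists called the Mrpl23 start, with a −log10 q of 14.5 (2-week female), 16.6 (2-week male), 19.6 (12-week female) or 11.4 (12-week male). The other later peaks of this interval came from the 2-week lists and had values between 1.54 and 2.34. None lay between the H19 and Igf2 genes or over either.

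**Figure D3:**
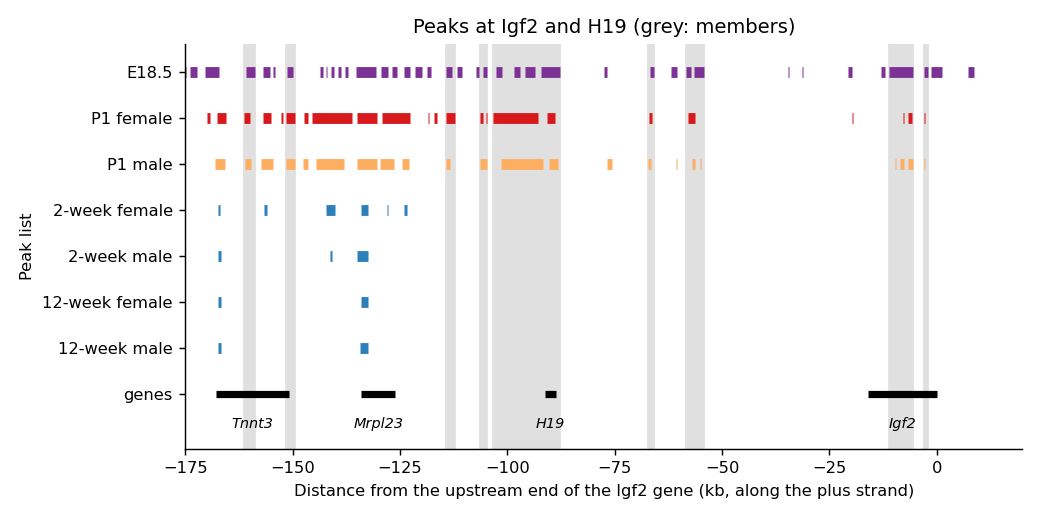
Called peaks of the 7 lists (rows; coloured bars) around Igf2 and H19, in kb along the plus strand from the upstream end of the Igf2 gene, with gene bodies in black and the 9 members shaded grey. The E18.5 and P1 rows carry peaks at Tnnt3, H19 and Igf2, the P1 rows have 1 peak (female) or none (male) between the Igf2 gene and the nearest member outside it, and the 2-week and 12-week rows carry peaks only to the left of H19, with a shared peak at the Mrpl23 start.

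The second cluster was also at an imprinted gene. It held 5 members over 202 kb of chromosome 6, among them members at the start of Cpa1, which encodes a pancreatic carboxypeptidase, at Cep41 and in an intron of Mest, an imprinted gene expressed in fetal mesoderm. The Mest member had −log10 q values of 1.54 at E18.5, 2.23 in P1 females and 2.07 in P1 males, and the Mest promoter itself was called in all 7 lists. Slc38a4, an amino acid transporter that is imprinted, had 2 members, at 2.63, 2.02 and 1.98 and at 1.72, 2.06 and 1.15. Its promoter was called in the younger lists and in 2-week females. The Snrpn member, upstream of the gene, was among the more uneven, with 5.44 at E18.5, 1.23 in P1 females and 4.31 in P1 males. The pair near Kcnq1ot1, the non-coding RNA of the Kcnq1 imprinted domain, lay in introns of Kcnq1, with values from 1.51 to 2.40. The Dlk1 member lay 19819 bp from the Dlk1 start, with 1.80, 1.42 and 1.12.

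Of 27 genes of red cell precursors, 12 (44.4%, 27.6% to 62.7%) had a member, through 9 distinct members that made up 1.79% of all members, against 0.160% of all union regions, 0.174% of regions called in all 7 lists and 0.0972% of later-only regions. With the same number of peaks kept per list, 6 of the 27 genes had a member, against 8 of the 27 imprinted genes, and with 50% of the region covered 2 and 5 had, so the order of the lists turned. All 9 members were weakly called. The member at the start of Hbb-bs, an adult beta-globin gene, had −log10 q values of 1.84 at E18.5, 2.13 in P1 females and 1.54 in P1 males, and no later peak lay within 63582 bp. The member at the start of Hba-a2, an adult alpha-globin gene, had 1.43, 1.93 and 1.23. The globin genes come in near-identical copies (Hba-a1 and Hba-a2, Hbb-bs and Hbb-bt), and which copy a read came from is uncertain. The member in Nprl3, whose introns hold the upstream enhancers of the alpha-globin genes, had 2.29, 2.75 and 1.15. It lay in a chain of 3 members over 136 kb that ended at Hba-a2, a span with 5 regions called in all 7 lists. Elsewhere inside Nprl3 all 4 later lists called peaks. At 1 stretch their −log10 q values were 2.29 (2-week female), 1.97 (2-week male), 3.47 (12-week female) and 2.50 (12-week male). Between that stretch and the member, both 12-week lists called a further peak, at 3.66 (female) and 1.59 (male).

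Genes of the red cell membrane supplied most of the others. The Slc4a1 member, at the anion exchanger of the red cell, was 5456 bp wide with 1.54 at E18.5, 2.06 in P1 females and 1.77 in P1 males. The member in Ank1, which encodes erythrocyte ankyrin, had 1.64, 1.62 and 1.47. The member in Sptb, erythrocyte beta-spectrin, had 2.54, 1.34 and 2.08. The member in Rhd, a blood group antigen, had 2.28, 1.44 and 1.14. Trim10, which is needed for red cell maturation, had 1.40, 1.59 and 1.14 at its start, and the member near E2f2, a cell cycle factor, had 1.33, 1.37 and 1.27. None of the 9 reached a −log10 q of 3 in any list.

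Promoter calls of the whole erythroid list were fewer in the later lists. Promoters were called for 21 of 27 genes at E18.5, 20 in P1 females and 18 in P1 males, and for 9, 10, 11 and 10 genes in the 2-week female, 2-week male, 12-week female and 12-week male lists. Over the same lists the promoters of all protein-coding genes went from 71.6%, 60.1% and 60.9% to 61.9%, 61.3%, 65.3% and 61.3%. The promoters of Hbb-bs, Hba-a1, Hba-a2, Slc4a1 and Trim10, 5 of the 27, were called in all 3 younger lists and no later one. Of all protein-coding genes 0.255% had this pattern. These counts rest on the peak calls that chose the members, so they describe the list and are no separate evidence. The embryonic globins Hbb-bh1, Hbb-y and Hba-x were called in none of the 7, and Tal1, Klf1, Lyl1, Bcl11a, E2f2, Tfrc and Sptb in all 7. How far the number of red cell precursors in the pooled glands bears on these members was not tested.

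**Figure D4:**
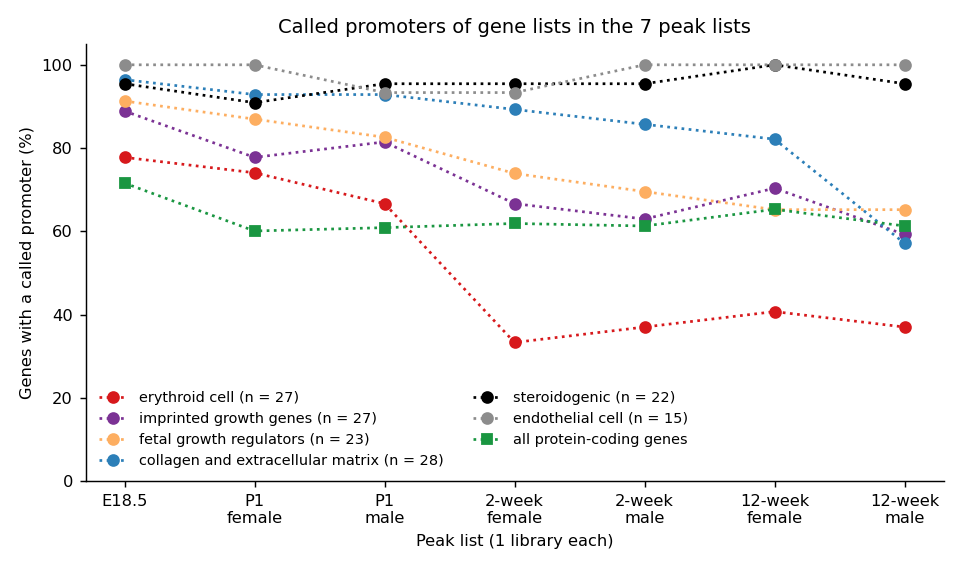
Percent of the genes of 6 lists, and of all protein-coding genes, with a called promoter (a peak within 1 kb of a start) in each of the 7 peak lists; dotted lines join the points of a list. The erythroid list is at 18 to 21 of 27 genes in the younger lists and 9 to 11 in the later ones, while the steroidogenic list stays at 20 to 22 of 22.

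Extracellular matrix genes had members in 4 of 28 cases (14.3%, 5.70% to 31.5%), with 8 members. The count was 7 without the E18.5 list in the rule, where 5.10% of all protein-coding genes had a member. With the same number of peaks kept per list it was 2, and the share of all genes was 1.90%. The genes of this list are long, with a median of 72865 bp. Col5a1, a fibrillar collagen gene, held 4 of them within 54.1 kb, all over exons of the gene body, with −log10 q values between 1.25 and 2.19 in the 3 lists and a lowest distance of 5537 bp to a later peak. Fbln2, a matrix glycoprotein, had 2, and Col4a1 and Col12a1 had 1 each. The Col4a1 member ended 43 bp from a later peak. Promoters of the list were called for 26 or 27 genes in the younger lists, for 23 to 25 in the 2-week and 12-week female lists, and for 16 in 12-week males.

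Other lists contributed little. The 12 Hox genes counted came from 2 members, within 1 kb of a start of Hoxa9 (4.37 at E18.5, 1.83 in P1 females and 1.79 in P1 males, the last from a peak outside that window) and of Hoxc9 (2.39, 1.44 and 1.68), in clusters so dense that 20 kb spans several genes. The count was 0 with 50% of the region covered or with no later peak within 5 kb, and 5 with gaps of 1 kb merged. The cell cycle list had Mki67 and E2f2, the hedgehog, Wnt and capsule list Gli2 and Cdon, both of hedgehog signalling, the immune list Cx3cr1, the Schwann cell list S100b, the muscle list Tnnt3 and the neuron list Sox11. The list of adrenal primordium transcription factors had 1 of 18 genes, Hoxa5, through the Hoxa9 region. None of 22 steroidogenic, 4 X-zone, 21 chromaffin, 15 endothelial, 12 kidney, 10 liver and 8 fat cell genes had a member. For the steroidogenic list a count of 0 leaves an upper Wilson bound of 14.9%, which lies above the 2.56% of all genes.

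By number of members, the leading gene model was Gm20388 with 7, a readthrough model of 4434882 bp. The cluster at Banp, 3 members in introns over 64.3 kb of chromosome 8, lay inside it, with −log10 q values from 1.13 to 2.51. Phactr2, a regulator of actin and protein phosphatase, had 3 intronic members over 96.2 kb, at values from 1.15 to 1.93. Dclk1, Tshz2, Tent5c, Cep41 and Mettl27 had 2 members each. In all, 104 members lay in 44 chains of 2 or more and 400 stood alone. Chromosome 6 had the highest rate, 45 members or 5.47 per 1000 union regions, and chromosomes 15 and 7 followed at 4.65 and 4.10. Besides H19 and Igf2, the widest members lay near Eral1 (7827 bp), at Dnajc11 (6468 bp) and in Ago2 (5872 bp).

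Base composition and motif words, neither of which the rule used, were compared in windows of 500 bases. Member windows were centred on the stretch called in all 3 younger lists or, without one, on the region's middle. Windows of the other classes were always centred on the region's middle. How far this difference in placement bears on the values below was not tested. Distal members had a median GC content of 51.6%, against 48.8% for all distal union regions, 49.8% for those called in all 7 lists and 45.0% for later-only regions. Repeats covered 8.60% of the median member window and 12.8%, 11.0% and 13.6% in the other classes. The 59 promoter members had a median observed over expected CpG ratio of 0.380, below the 0.525 of all union promoters and the 0.630 of those called in all 7 lists and above the 0.185 of the 46 later-only promoter regions.

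Of 17 motif words, searched on both strands, 1 was more frequent in distal members than in each other class by more than the intervals. The E-box CAGCTG, a word of bHLH factors, stood in 39.3% (34.9% to 43.9%) of distal members, against 29.8% of all, 31.6% (30.6% to 32.6%) of those called in all 7 lists and 24.1% of later-only regions. Without the E18.5 list in the rule the share was 32.6%, no longer beyond the interval of the regions called in all 7 lists. The E-box CAGGTG went the other way against all regions, with 26.7% (22.8% to 31.0%) against 34.1%, but the 29.9% of those called in all 7 lists and the 27.5% of later-only regions lay inside the members' interval. As a control for composition, the letters of each word were read in reversed order and counted in the same windows. The reversed letters of CAGCTG, which hold a CpG, stood in 1.12% of members, 0.949% of all, 1.05% of those called in all 7 lists and 0.597% of later-only regions. They are too rare to serve as a control for this word, so how far base composition bears on its shares was not tested. Those of CAGGTG stood in 18.4% of members and 18.8% of all.

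The word of GATA factors, AGATAA, stood in 18.2% (14.9% to 22.1%) of distal members, 21.6% of all and 30.5% of later-only regions. Without the E18.5 list in the rule it stood in 24.4%, above the share of all regions, so that this direction rests on that library. Its reversed letters stood in 10.8%, 18.2% and 23.8%, the same order over the classes. NR5A1 (CAAGGTCA), the word of the factor that directs steroidogenic genes, stood in 2.92% (1.72% to 4.93%), 4.59% and 7.41%, and its reversed letters in 2.25% of members and 1.74% of later-only regions, the opposite order. AP-1 (TGANTCA) stood in 12.8%, 15.7% and 22.5%, against 9.66%, 12.3% and 14.5% for its reversed letters. The homeodomain word TAATTA stood in 5.84%, 8.95% and 11.5%, against 4.49%, 8.67% and 12.3% reversed. For the GATA, AP-1 and homeodomain words the reversed letters too were least frequent in the members and most frequent in the later-only regions. TEAD (GGAATG) went the other way against all regions, with 31.0% (26.9% to 35.5%) against 25.9%, but it stood in 26.5% (25.6% to 27.5%) of those called in all 7 lists and in 28.1% of later-only regions, whose intervals overlap that of the members. Its reversed letters were also more frequent in the members, at 18.7%, 15.9% and 16.2%. The composite of an E-box and a GATA word, which is bound by the TAL1 and GATA1 complex in red cells, stood in 9 of 445 distal members (2.02%, 1.07% to 3.80%) and in 0.652% of all distal regions, higher beyond the intervals. It stood in 0.876% (0.701% to 1.10%) of those called in all 7 lists and in 0.995% (0.645% to 1.53%) of later-only regions, whose intervals overlap that of the members. None of the 9 members with it had a nearest gene in the erythroid list.

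**Figure D5:**
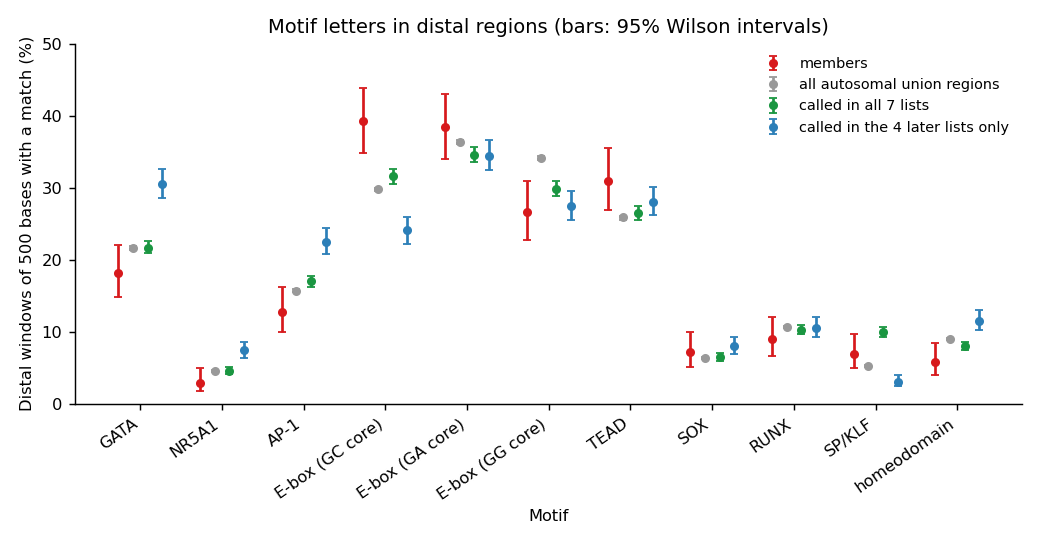
Percent of 500-base windows of distal regions with a match to each of 11 motif words, for members, all union regions, regions called in all 7 lists and regions called in the 4 later lists only; bars are 95% Wilson intervals. The GATA, NR5A1 and AP-1 points of the later-only regions lie above those of the members, and the order is reversed for the E-box with the GC core, CAGCTG.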

How the data were processed

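H3K27ac peaks of 7 ChIP libraries were used, and the input library entered nothing. Per the submitters' processing notes, Bowtie2 2.3.4.3 and MACS2 2.1.1 were among the tools and mm10 was the build. The authors deposited broad peaks called for each library alone, each with a score, a fold enrichment ratio over background, a −log10 p and a −log10 q. The q cutoff and the control of the calls are not given in the sources used here. Peaks hold no read counts, so depth is unknown.

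Peaks were merged into union regions, called at an overlap of at least 1 bp. A region's value in a list is that of its peak with the highest −log10 q. The members and gene lists (19 lists, 353 entries) were chosen with earlier results of these data known. Named were the 20 highest-ranked, 5 widest and 10 highest promoter members, the 5 largest clusters, the 15 genes with most members, and list genes with a member. A few items under these rules are not reported here. Genes came from GENCODE M21 and sequence from RefSeq's GRCm38. No statistical test was run, since the contrast of younger with later lists chose the members and each group has 1 library. The code for the overlaps was run on simulated, separate regions whose peaks always overlapped: 453 planted members of 20000 regions were all found. Split peaks, or peaks of a region that do not overlap, were not simulated. On the real lists bedtools 2.31.1 found the same 504. Python 3.11.15, pandas 2.3.3 and pysam 0.24.0 were used.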

Additional observations from a re-analysis of the deposited data

How the results depend on the processing

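The number of members depended on the threshold and the overlap. Keeping only peaks whose −log10 q reached 5 in all lists gave 5, a bound of 2 in the younger lists gave 18, and the count was 226 with 50% of the region covered, 278 with no later peak within 5 kb and 1081 in bins of 1 kb. With the same number of peaks (43638) kept per list it was 342 and with gaps of 1 kb merged 530, both within 1.5 times 504. Leaving out 1 list gave 550 to 1380, with 1258 without E18.5, 983 without P1 female and 1380 without P1 male. Leaving out a list drops 1 condition of the rule over the same union regions, so every member stays. Counts of members, and of genes near them, can then only stay or rise.

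Under the same settings the promoter share was 80%, 22.2%, 23.9% (50% covered) and 19.6% (same number), and 6.44% (without E18.5) to 12.7% leaving out a list. Genes with a member came to 0.0384%, 0.0721%, 1.32%, 1.20% (5 kb), 4.57% (bins) and 1.90% (same number), and to 2.76% to 6.84% leaving out a list (5.10% without E18.5, 4.88% without P1 female, 6.84% without P1 male, 3.84% without 12-week female). They came to 1.38% in gene bodies alone, 7.41% within 100 kb and 2.18% by nearest start. The GATA share was 0 of 1 and 0 of 14 windows at the stricter thresholds, 14.8% with no later peak within 5 kb, 7.87% in windows of 200 bases and 18.2% to 24.4% leaving out a list (24.4% without E18.5, above the 21.6% of all distal regions). The CAGCTG share of 39.3% was 35.2% in bins of 1 kb, 37.2% with 50% covered, 20.2% in windows of 200 bases and 32.6% (without E18.5) to 40.5% leaving out a list. A later peak lay within 5 kb of 44.8% and, counting 2-week lists alone, within 1 kb of 5.16%. Chaining at 500 kb put 232 members in clusters.

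The erythroid count of 12 genes was 0 at both stricter thresholds, 2 with 50% covered, 6 with the same number of peaks or by nearest start, 7 in gene bodies and 12 to 16 leaving out a list. The imprinted count of 7 was 0 and 2 at the stricter thresholds, 5 with 50% covered, 8 with the same number of peaks, 6 by nearest start, 4 in gene bodies and 7 to 10 leaving out a list. The fetal growth count of 6 was 2 and 1 at the stricter thresholds, 3 with 50% covered or no later peak within 5 kb and 6 to 10 leaving out a list (10 without P1 male). The matrix count of 4 was 0 at both stricter thresholds, 2 with the same number of peaks, 7 in bins, 8 within 100 kb and 4 to 7 leaving out a list (7 without E18.5). The Hox count of 12 was 0 at both stricter thresholds, with 50% covered and with no later peak within 5 kb, 5 with gaps merged, 2 by nearest start, 3 in gene bodies, 20 within 100 kb and 12 leaving out any list. The steroidogenic count was 0, and 1 without P1 male. Since every member stays when a list is left out, none of these counts could fall under that setting, and their lower ends show no stability. No paired analysis was possible because no result comes from a test: the contrast of younger with later lists chose the members.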

Other observations

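Chromosome X was outside the rule, and 3 of its 2605 union regions (0.115%) had the same pattern of calls, among 417 called in all 3 younger lists. The first covered the start of Gpc3 (chrX:52612315-52614619), a glypican that restrains fetal growth, with −log10 q values of 3.48 at E18.5, 1.77 in P1 females and 1.74 in P1 males. The second lay 5271 bp from Smim9, with 1.31, 1.86 and 2.71. The third lay 22963 bp from Bex4, with 1.58, 3.54 and 2.74. No later list called them.

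The number of regions that went in stages depended on the 2-week lists required. Of the regions called in all 3 younger lists, 88 were also called in both 2-week lists and in neither 12-week list, against the 504 called in none of the 4. A further 136 had 2-week females as their only later list, and 47 had 2-week males. In 218 both 12-week lists called the region and neither 2-week list did. Of the 88, 25 (28.4%, 95% Wilson interval 20% to 38.6%) lay at promoters, against 20 of the 218 (9.17%, 6.02% to 13.7%).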
